A study of Mus musculus with 24 samples.

Results

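The mitochondrial ribosome proteins encoded in the nucleus were followed through lactation in the mouse mammary gland, in mice of 2 genotypes. The genes are those whose symbol is Mrpl or Mrps followed by a digit, with pseudogenes left out. There were 77 of them among 32544 genes in the table, and all 77 were among the 16144 genes tested. Of these proteins 50 belong to the large subunit of the ribosome and 26 to the small subunit. Mrps30 and Mrps18a are large subunit proteins in spite of their names, and Mrps36, a protein of the 2-oxoglutarate dehydrogenase complex, stands apart. Polyadenylated RNA of whole inguinal glands, frozen as tissue, was sequenced from 24 mice, 3 in each of 8 groups. The genotypes are labelled BL/6 C57 and BL/6 NZB, called C57 and NZB here. The stages were non-lactating and lactation days 8, 14 and 21. The labels name no treatment in any group and state no age, and the name of the deposited table refers to a first pregnancy.

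Mitochondria translate the few proteins encoded by their own DNA on a ribosome of their own. Its RNA comes from the mitochondrial genome, whereas every one of its proteins is encoded in the nucleus, made in the cytosol and imported. Many have a counterpart in bacterial ribosomes, while others are found only in mitochondria. The proteins made on it are subunits of the respiratory chain and of ATP synthase. Milk secretion is a costly process, and the secretory cells of the lactating gland are rich in mitochondria.

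Depth, in units of 1000000 reads assigned to genes, was 7.03 to 15.9 in non-lactating glands and 14.8 to 24.3 in lactating glands. These totals include milk protein genes, so they do not show the depth left for other genes. Transcripts of 19 milk protein genes took 0.45% of counts in C57 non-lactating glands, 1.45% in NZB ones, 70.1% to 73.9% in 5 lactating groups and 24.3% in NZB on day 21 (group means). Values below are therefore CPM, counts scaled to a common total per library and here rescaled without these genes, the non-milk scale, unless the deposited scale is named. For C57 non-lactating mouse 3 the title says C57 but the genotype entry says NZB, and the title was followed; without it 14, 5 and 9 members were called on days 8, 14 and 21 in C57 mice, against 17, 12 and 11 with it. C57 non-lactating mouse 2 stood apart from its group (a chi-square per gene of 61.5 and 64.9 to the other two, which differed from each other by 11.7), and without it 7, 8 and 7 were called. Its 2 columns, averaged with equal weight, held 2.17 and 11.9 in units of 1000000 reads, whereas those of every other mouse were nearly equal. The chi-square per gene between its columns, 1.63, was the highest of the 24 mice. With the second column of each mouse alone, 86 member calls over all comparisons were kept and 7 lost. C57 non-lactating mouse 2 had luminal epithelial markers (Krt8, Krt18, Epcam and 4 others) summing to 865 CPM, against 411 and 412 in the other 2 controls. In NZB non-lactating glands these markers summed to 41.7 to 233 CPM, and in lactating glands to 1274 to 1954. White adipocyte markers (6 genes, among them Adipoq and Plin1) summed to 2361 to 6439 CPM in non-lactating glands, 218 to 453 in lactating ones and 752 to 2165 in NZB on day 21. B cell markers (5 genes) reached 433 and 972 CPM in NZB non-lactating mice 2 and 3 and stayed at or under 92.2 in the other 22 mice, and T cell markers reached 724 CPM in NZB non-lactating mouse 3. Skeletal muscle markers (6 genes) reached 262 and 882 CPM in NZB day 21 mice 1 and 2, and 486 in NZB non-lactating mouse 3. Of the 6 genes of the brown adipocyte list, Ucp1, Cox7a1, Cox8b and Zic1 averaged at most 4.19, 1.25, 7.72 and 0.68 CPM in any group. Cidea, a lipid droplet protein also known from lactating mammary epithelium, carried the list's sum: it averaged 3.63 CPM before lactation in C57 and 14.8 in NZB, then 759.7 to 1059.8 in 5 lactating groups and 67.6 in NZB on day 21, and Otop1 averaged up to 71.1. On day 8 Cidea and Otop1 rose and Cox8b fell in both genotypes.

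Upstream sequences are shown for the members that moved on day 8 in C57 mice and kept their call whichever single mouse was left out (Mrpl12, Mrpl41, Mrps27 and Mrpl49 here; Mrpl54 and Mrps30 are the others). They are the exon-free stretch of the 250 bases before the start in RefSeq (GRCm38.p6), read 5′ to 3′ on the strand of the gene. Capitals mark a match to the NRF1 motif (GCGCA, any base, GCGC) or the ETS motif bound by GABPA (CCGGAAG), on either strand. NRF1 and GABPA are transcription factors known for driving nuclear genes of mitochondrial proteins.
Mrpl12: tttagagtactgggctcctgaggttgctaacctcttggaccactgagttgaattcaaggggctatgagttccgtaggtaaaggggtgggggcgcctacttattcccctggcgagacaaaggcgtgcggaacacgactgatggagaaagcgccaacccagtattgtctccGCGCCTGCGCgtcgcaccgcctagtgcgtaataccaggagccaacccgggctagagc
Mrpl41: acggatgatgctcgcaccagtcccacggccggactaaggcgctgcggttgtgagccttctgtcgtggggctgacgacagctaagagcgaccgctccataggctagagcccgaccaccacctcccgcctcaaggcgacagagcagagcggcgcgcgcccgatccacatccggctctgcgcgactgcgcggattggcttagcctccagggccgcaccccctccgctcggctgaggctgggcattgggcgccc
Mrps27: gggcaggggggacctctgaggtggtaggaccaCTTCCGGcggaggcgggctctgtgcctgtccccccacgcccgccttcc
Mrpl49: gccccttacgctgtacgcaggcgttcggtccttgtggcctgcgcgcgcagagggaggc
The stretch before Mrpl12, which rose, lies at chr11:120484387-120484612 (plus strand) and holds an NRF1 match. The stretch before Mrpl41, which also rose, lies at chr2:24975099-24975348 (minus strand) and holds neither motif. The stretch before Mrps27, which fell, lies at chr13:99344706-99344785 (plus strand), is the 80 bases between Mrps27 and the divergent gene Ptcd2, and holds an ETS match. The stretch before Mrpl49, which fell, lies at chr19:6057786-6057843 (minus strand) and is the 58 bases between Mrpl49 and the divergent gene Fau, a cytosolic ribosome protein gene. In all, 23 members have a protein-coding gene that starts within 1000 bases and runs the other way.

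Promoter windows (250 bases before to 50 after the start) were found for 68 of 77 members. The NRF1 motif was in 13 of them (19.1%), beside 5.19% of all 27025 genes with a window. The ETS motif was in 25 (36.8%), beside 9.93%. The YY1 motif (AAGATGGC) was in 12 (17.6%), beside 3.19%. The E-box CACGTG was in 5 (7.35%), beside 8.09%. Both strands were searched, and the last 3 letters of the ETS motif are the first 3 of the YY1 motif, so that matches can overlap. One of the first 3 motifs was in 42 members (61.8%) and in 16.4% of all genes. The 27025 genes behind these shares were not limited to the 16144 tested in the gland, whereas every member was tested. On day 8 in C57 mice 3 of these 42 members were higher and 5 lower, and of the 26 without any of the 3 motifs 1 was higher and 6 lower. Of all genes 45.3% were called in that comparison.

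On the non-milk scale the summed level of the family overlapped between stages in both genotypes. In C57 mice the 77 genes summed to 1386, 1520.2 and 1376 CPM in non-lactating glands, 1437, 1397 and 1418 on day 8, 1394, 1380.2 and 1302 on day 14 and 1345, 1345 and 1413 on day 21. In NZB mice they summed to 1434, 1539.7 and 1667 in non-lactating glands, 1418, 1484 and 1454 on day 8, 1435, 1435 and 1337 on day 14 and 1355, 1604 and 1713 on day 21. Lactating and non-lactating mice overlapped in all 6 of these comparisons. NZB day 21 had the widest spread, with mouse 3 the highest of all 24. On the deposited scale the same sums were 1379.6, 1514 and 1369 CPM in C57 non-lactating glands and 420.4, 345 and 346 on day 8, and 373, 388 and 435 on day 14 and 949.7, 1320.2 and 1278 on day 21 in NZB mice. The median-of-ratios scale divides the non-milk values of each mouse by a scaling factor. There day 8 lay above the controls in both genotypes. C57 mice summed to 1644, 1714 and 1601 CPM on day 8, against 1362, 1212 and 1395 in non-lactating glands. NZB mice summed to 1541, 1518 and 1529, against 1475, 1296 and 1196. Days 14 and 21 overlapped the controls on that scale in both genotypes. Large subunit genes summed to 2.22 to 2.70 times the small subunit genes in the 24 mice.

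**Figure D1:**
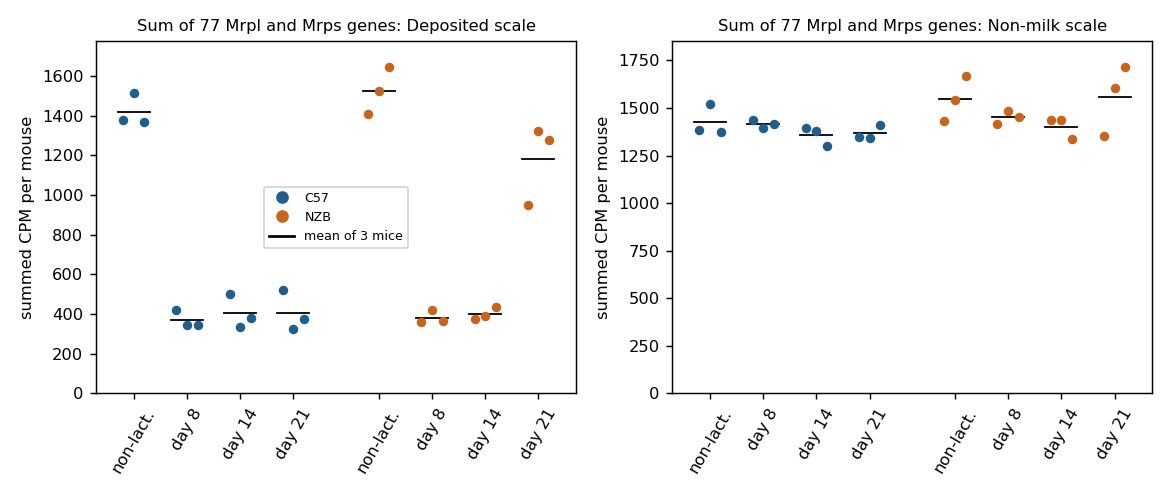
Summed CPM of the 77 Mrpl and Mrps genes in each mouse (points, vertical axis, CPM) by group (horizontal axis), with the mean of 3 mice as a line, on the deposited scale (left) and the non-milk scale (right). On the left the 15 mice of 5 lactating groups lie at 327 to 521 and NZB day 21 at 949.7 to 1320.2, and on the right all 24 mice lie between 1302 and 1713.

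Among the members, levels are compared per kilobase of transcript (median length of the basic protein-coding transcripts in GENCODE), as the mean over the 8 groups on the non-milk scale. Mrps17, a small subunit protein with a bacterial counterpart, was highest at 65.8 CPM per kilobase, followed by Mrps21 at 54.1 and Mrpl41 at 49.1. Mrps16 at 0.93, Mrpl46 at 1.77 and Mrps11 at 2.32 were lowest, and the median member stood at 10.4. Mrpl46 and Mrps11 lie on opposite strands of chromosome 7 and share 173 bases of exon, so their reads cannot be told apart there unless strand was used, and the sources do not say whether it was. The level of a member ranged over the 8 group means by a median of 0.63 on the log2 scale. The range was widest for Mrpl41 (1.41), Mrpl23 (1.35) and Mrps9 (1.15), and narrowest for Mrpl16 (0.31), Mrps22 (0.34) and Mrpl17 (0.35). In the deposited values 64 members were above 1 CPM in all 24 mice. Of the other 13, Mrpl46 was above it in 7 mice, Mrpl23 and Mrps16 in 10, Mrps11 in 11 and Mrpl21 in 14.

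On the non-milk scale early lactation in C57 mice came with opposite changes within the family. On day 8 6 members rose and 11 fell against non-lactating glands (limma, adjusted p under 0.05 over all 16144 genes), which is 22.1% of the 77 beside 45.3% of all genes. Differences are given as log2 of non-milk CPM plus 1, with the limma standard error over 24 mice. The median member differed by −0.04 and the median gene by −0.33. The deposited scale gave 0 higher and 75 lower, beside 91.0% of all genes called, and the median-of-ratios scale gave 15 higher and 1 lower, beside 43.8%. The median of all genes was −1.81 on the deposited and −0.06 on the median-of-ratios scale, and the median member lay above it by 0.29, 0.08 and 0.32 on the non-milk, deposited and median-of-ratios scales. Fewer cells of a type and less RNA per cell cannot be told apart in whole glands.

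Mrpl12 (chr11:120484613-120489065, plus strand), the stalk protein of the large subunit, stood at 25.2, 19.99 and 22.5 CPM in C57 non-lactating mice, 45.1, 51.9 and 49.7 on day 8, 42.4, 40.8 and 34.0 on day 14 and 27.1, 41.1 and 51.4 on day 21. Every lactating C57 mouse lay above every non-lactating one. The difference was 1.09 ± 0.22, adjusted p = 0.00031 on day 8, 0.77 ± 0.22, adjusted p = 0.0075 on day 14 and 0.76 ± 0.22, adjusted p = 0.0081 on day 21. Without day 21 mouse 3 the last was 0.55, adjusted p = 0.068. The 3 differences turned on the deposited scale to −0.77, −0.91 and −0.93. A gene model on the opposite strand, Gm16755, shares 200 exon bases with Mrpl12.

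Mrpl41 (chr2:24974117-24975098, minus strand), a large subunit protein found only in mitochondria, stood at 23.1, 21.6 and 23.1 CPM in C57 non-lactating mice and 42.5, 63.4 and 48.4 on day 8. The groups did not overlap, and the difference was 1.13 ± 0.33, adjusted p = 0.0072. Its divergent neighbour Pnpla7, which starts 935 bases away, rose too (1.39 ± 0.37, adjusted p = 0.0041). Mrpl41 spread widely later, at 29.5, 22.5 and 51.4 on day 14 and 25.7, 18.4 and 45.3 on day 21, where both days overlapped the controls and neither difference passed the test (0.50 ± 0.33, adjusted p = 0.24 and 0.29 ± 0.33, adjusted p = 0.52). Mrpl54 (chr10:81264713-81266934, minus strand), another large subunit protein of mitochondria alone, went from 6.45, 3.37 and 4.93 to 9.90, 12.9 and 9.82 CPM on day 8 with no overlap (1.03 ± 0.26, adjusted p = 0.0022). These rises reversed on the deposited scale, to −0.73 for Mrpl41 and −0.59 for Mrpl54.

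Mrps27 (chr13:99344786-99415562, plus strand), a small subunit protein with pentatricopeptide repeats, stood at 19.2, 17.4 and 20.9 CPM in C57 non-lactating mice and 11.5, 10.2 and 10.1 on day 8. The groups did not overlap (−0.80 ± 0.20, adjusted p = 0.0028), and it was lower on day 14 too, at 11.8, 10.6 and 11.4 CPM (−0.72 ± 0.20, adjusted p = 0.0073). On day 21 it stood at 17.4, 15.3 and 12.6 and did not pass the test (−0.33 ± 0.20, adjusted p = 0.21). Mrps30 (chr13:118378381-118387252, minus strand), a large subunit protein, was lower on all 3 days. It stood at 21.3, 19.9 and 21.8 CPM in non-lactating mice, 12.9, 13.5 and 10.4 on day 8, 10.1, 14.1 and 11.1 on day 14 and 14.5, 11.6 and 12.4 on day 21. Every lactating C57 mouse lay below every control, with differences of −0.74 ± 0.20, adjusted p = 0.0053 on day 8, −0.80 ± 0.20, adjusted p = 0.0034 on day 14 and −0.68 ± 0.20, adjusted p = 0.011 on day 21. Mrps30 shares 623 exon bases with the antisense gene B430218F22Rik, whose own difference on day 8 was −0.75 ± 0.41, adjusted p = 0.15. On the median-of-ratios scale the calls of Mrps27 (−0.49, adjusted p = 0.07 on day 8 and −0.54, adjusted p = 0.0503 on day 14) and Mrps30 (−0.43, adjusted p = 0.16 on day 8 and −0.48, adjusted p = 0.12 on day 21) were lost, and that of Mrps30 on day 14 was kept (−0.62, adjusted p = 0.043).

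Mrpl49 (chr19:6053622-6057785, minus strand), also of the large subunit, went from 16.4, 16.0 and 14.7 CPM to 8.31, 9.09 and 10.3 on day 8 without overlap (−0.71 ± 0.22, adjusted p = 0.0097). Its overlapping neighbour on the opposite strand, Syvn1, went the other way (0.70 ± 0.20, adjusted p = 0.0057), and on the median-of-ratios scale Mrpl49 was at −0.41, adjusted p = 0.15. Mrps25 (chr6:92169525-92184033, minus strand), a small subunit protein, stood at 32.9, 43.3 and 31.3 CPM in C57 non-lactating mice and 21.6, 18.8 and 15.1 on day 21, with no overlap (−0.92 ± 0.25, adjusted p = 0.0054). It shares 4590 exon bases with Nr2c2 on the opposite strand, which differed by 0.04 ± 0.22, adjusted p = 0.9. White adipocyte markers had a median difference of −4.43 on day 8 (6 of 6 lower) in the same comparison, and their part in these results was not tested.

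Most other calls of C57 mice did not hold in every fit without 1 mouse. Of the 17 calls of day 8, 6 were kept whichever mouse was left out, and the other 11 (Mrpl38, Mrpl57 and Mrps21 higher and Mrpl11, Mrpl23, Mrpl27, Mrpl33, Mrpl40, Mrpl50, Mrps25 and Mrps9 lower, sizes 0.51 to 1.10) were lost without at least 1 mouse, 10 of them without day 8 mouse 2 and 10 without non-lactating mouse 2. The count of called members was then 7 and 7. On day 14 4 members were higher and 8 lower, 15.6% beside 39.6% of all genes, with a median of −0.13 for members and −0.21 for all genes. With deposited values 0 members were higher and 76 lower, beside 88.9% of all genes called, and the median-of-ratios scale gave 4 higher and 1 lower, beside 40.3%. Of these 12 calls 3 were kept (Mrpl12, Mrps27 and Mrps30), with Mrpl9, Mrps12 and Mrps18a higher and Mrpl11, Mrpl3, Mrpl33, Mrpl42, Mrps15 and Mrps36 lower as the others. The count was 6 without day 14 mouse 3, 6 without non-lactating mouse 1 and 5 without non-lactating mouse 3. On day 21 4 were higher and 7 lower, 14.3% beside 40.4%, with medians of −0.14 and −0.23. Before rescaling, on the deposited scale, 0 members were higher and 76 lower, beside 89.0% of all genes called, and the median-of-ratios scale gave 6 higher and 2 lower, beside 40.3%. Of these 11 calls 2 were kept (Mrps25 and Mrps30), with Mrpl12, Mrpl46, Mrpl9 and Mrps18a higher and Mrpl11, Mrpl33, Mrpl40, Mrps35 and Mrps9 lower as the others. The count was 7 without day 21 mouse 3, 7 without non-lactating mouse 2 and 6 without non-lactating mouse 1. The 3 days share their non-lactating controls.

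No member passed the test between days 14 and 21 of C57 mice (0 of 77 with limma and 0 with limma voom, 0 at an unadjusted p under 0.05), beside 0.0% of all genes (172 genes at an unadjusted p under 0.05). The libraries of mouse 2 of both days were more alike, at a chi-square per gene of 4.36, than any 2 mice of 1 group, at 10.3 to 211.

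**Figure D2:**
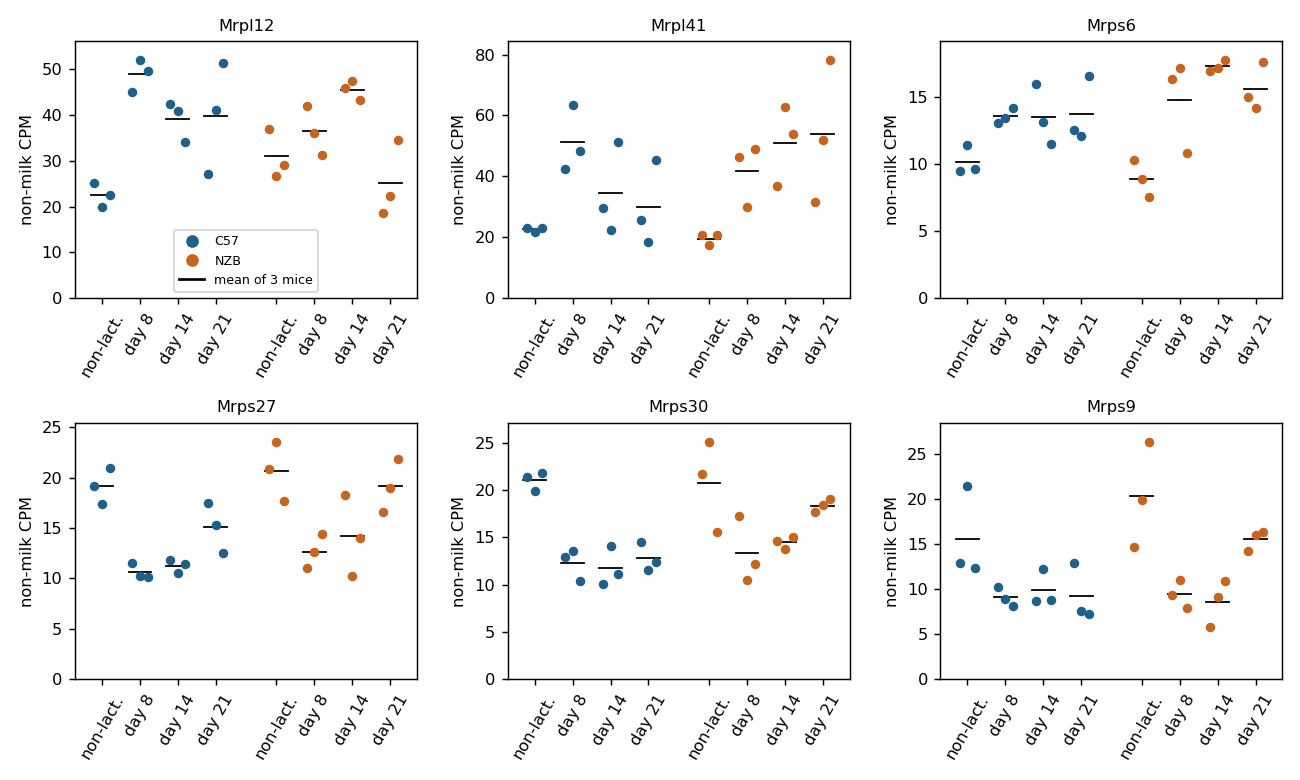
Non-milk CPM (vertical axis) of 6 members in each mouse (points) by group, with the mean of 3 mice as a line. Mrpl12 and Mrpl41 lie higher on day 8 than in non-lactating C57 glands on this scale, where the deposited scale reverses both, and Mrps27 and Mrps30 lie lower in C57 on days 8 and 14. Mrps6 lies higher in all lactating NZB mice on the non-milk scale, and the deposited scale reverses this on days 8 and 14. It shares exon bases on the same strand with Slc5a3, so its level is uncertain. Mrps9 lies lower in NZB on days 8 and 14.

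In NZB mice, too, members moved both ways on the non-milk scale. On day 8, against NZB non-lactating glands 3 members rose and 12 fell, 19.5% beside 48.2% of all genes, with a median of −0.04 for members and −0.33 for all genes. With deposited values 0 members were higher and 77 lower, beside 91.6% of all genes called, and the median-of-ratios scale gave 12 higher and 4 lower, beside 46.2%. On day 14 6 rose and 14 fell, 26.0% beside 47.4%, with medians of −0.19 and −0.36. Before rescaling, on the deposited scale, 0 members were higher and 75 lower, beside 91.2% of all genes called, and the median-of-ratios scale gave 10 higher and 4 lower, beside 43.7%. On day 21 3 rose and 2 fell, 6.49% beside 33.0%, with medians of −0.02 and −0.07. The deposited scale gave 1 higher and 20 lower, beside 41.6% of all genes called, and the median-of-ratios scale gave 3 higher and 1 lower, beside 33.7%. The 3 days share their controls. Without NZB non-lactating mice 2 and 3, whose B cell markers were high, 3 members were called on day 8, 2 on day 14 and 3 on day 21, against a single control mouse assumed to vary like the other groups. On day 8 luminal markers had a median difference of 1.73, white adipocyte markers of −3.86 and B cell markers of −3.53, and their part in these results was not tested.

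Mrpl41 stood at 20.6, 17.6 and 20.6 CPM in NZB non-lactating mice, 46.3, 30.1 and 49.1 on day 8, 36.8, 62.8 and 53.8 on day 14 and 31.7, 52.0 and 78.1 on day 21. All 9 lactating NZB mice lay above the 3 controls. The differences were 1.03 ± 0.33, adjusted p = 0.013 on day 8, 1.31 ± 0.33, adjusted p = 0.0025 on day 14 and 1.33 ± 0.33, adjusted p = 0.0033 on day 21. Without day 8 mouse 3 the first was 0.90, adjusted p = 0.057, and without control mice 2 and 3 they were 0.95, adjusted p = 0.13, 1.23, adjusted p = 0.053 and 1.25, adjusted p = 0.055. The day 8 and day 14 differences reversed on the deposited scale, to −0.79 and −0.41.

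Mrps6 (chr16:92058270-92112227, plus strand), a small subunit protein with a bacterial counterpart, stood at 10.3, 8.88 and 7.51 CPM in NZB non-lactating mice, 16.3, 17.1 and 10.8 on day 8, 16.9, 17.2 and 17.7 on day 14 and 14.97, 14.1 and 17.6 on day 21. No lactating mouse overlapped the controls, and the 3 mice of day 14 lay within 1 CPM of each other. The differences were 0.65 ± 0.20, adjusted p = 0.011, 0.89 ± 0.20, adjusted p = 0.0011 and 0.75 ± 0.20, adjusted p = 0.0065 on days 8, 14 and 21. Without day 8 mouse 2 the first was 0.54, adjusted p = 0.058, and without control mice 2 and 3 they were 0.45, adjusted p = 0.25, 0.69, adjusted p = 0.072 and 0.54, adjusted p = 0.17. The day 8 and day 14 differences reversed on the deposited scale, to −1.01 and −0.72. Mrps6 shares 464 exon bases on the same strand with Slc5a3, a myo-inositol transporter, and Gm49711, so its level is uncertain. Slc5a3 rose in the same comparisons, by 0.97 ± 0.26, adjusted p = 0.0037, 0.99 ± 0.26, adjusted p = 0.0035 and 1.45 ± 0.26, adjusted p = 0.00016. In C57 mice Mrps6 differed by 0.38 ± 0.20, adjusted p = 0.13 on day 8.

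Mrps9 (chr1:42851233-42905683, plus strand), a small subunit protein with a bacterial counterpart, fell furthest among the members called on day 14. It stood at 14.7, 19.9 and 26.4 CPM in NZB non-lactating mice, 9.33, 11.1 and 7.88 on day 8, 5.77, 9.15 and 10.9 on day 14 and 14.2, 16.1 and 16.4 on day 21. Days 8 and 14 lay below all controls (−1.01 ± 0.27, adjusted p = 0.0041 and −1.15 ± 0.27, adjusted p = 0.0016), and day 21 overlapped them (−0.33 ± 0.27, adjusted p = 0.38). Without control mice 2 and 3 the first 2 were −0.60, adjusted p = 0.24 and −0.74, adjusted p = 0.15, and control mouse 3 held the highest of all 24 values. Mrps36 (chr13:100735955-100744659, minus strand) went from 11.3, 8.93 and 6.14 CPM to 2.74, 4.07 and 3.86 on day 8 and 3.55, 4.33 and 4.41 on day 14, with no overlap. Its differences were −1.08 ± 0.26, adjusted p = 0.0014 and −0.91 ± 0.26, adjusted p = 0.006, and both held without control mice 2 and 3. The day 14 call was lost on the median-of-ratios scale (−0.65, adjusted p = 0.06) and with the compared groups alone (−0.91, adjusted p = 0.051).

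Mrpl49 went from 17.9, 19.7 and 17.7 CPM to 7.78, 11.2 and 10.2 on day 8 in NZB mice (−0.87 ± 0.22, adjusted p = 0.0021). Mrps15 (chr4:126046925-126055532, plus strand), a small subunit protein with a bacterial counterpart, went from 26.1, 21.8 and 21.1 to 15.4, 12.4 and 9.68 (−0.85 ± 0.23, adjusted p = 0.0044, and −0.56, adjusted p = 0.096 on the median-of-ratios scale). Neither overlapped its controls, and both calls held without control mice 2 and 3. Mrpl23 (chr7:142532686-142540747, plus strand), a large subunit protein with a bacterial counterpart, had the largest fall of day 8, from 3.83, 5.91 and 6.70 to 1.55, 1.99 and 1.07 (−1.34 ± 0.36, adjusted p = 0.0038). It was above 1 deposited CPM in 10 of 24 mice and passed the filter through non-lactating glands, NZB day 21 glands and C57 day 21 mouse 1, and without control mice 2 and 3 it was at −0.94, adjusted p = 0.17. Mrpl45 (chr11:97315716-97329920, plus strand), which helps hold the ribosome at the inner membrane, went from 29.5, 31.4 and 36.4 to 19.0, 19.8 and 22.8 on day 8 (−0.63 ± 0.16, adjusted p = 0.0023) and 23.3, 20.3 and 18.6 on day 14 (−0.62 ± 0.16, adjusted p = 0.003), with no overlap on either day, and to −0.50, adjusted p = 0.092 and −0.49, adjusted p = 0.11 without control mice 2 and 3. The median-of-ratios scale ended both calls of Mrpl45, at −0.34, adjusted p = 0.088 and −0.32, adjusted p = 0.11.

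Of day 14 in NZB mice, Mrpl40 (chr16:18872018-18876862, minus strand) of the large subunit went from 11.8, 11.2 and 12.9 to 7.34, 5.07 and 4.78 CPM (−0.96 ± 0.27, adjusted p = 0.006), and without control mice 2 and 3 was at −0.95, adjusted p = 0.076. Mrps25 went from 28.7, 31.2 and 48.0 to 21.3, 17.4 and 17.0 (−0.89 ± 0.25, adjusted p = 0.0063), and without them was at −0.61, adjusted p = 0.19. Mrpl27 (chr11:94653767-94660089, plus strand), a large subunit protein with a bacterial counterpart, went from 15.5, 16.7 and 22.1 to 9.15, 11.9 and 8.74 (−0.80 ± 0.21, adjusted p = 0.0031), and without them was at −0.61, adjusted p = 0.12. Mrps35 (chr6:147042764-147073991, plus strand), a small subunit protein, went from 39.7, 39.7 and 51.6 to 24.6, 33.4 and 24.1 (−0.66 ± 0.19, adjusted p = 0.0075), and without them was at −0.54, adjusted p = 0.14. None of the 4 overlapped its controls. On the median-of-ratios scale Mrps35 lost its call (−0.36, adjusted p = 0.11) and Mrpl27 kept it with a smaller fall (−0.51, adjusted p = 0.041). On day 21 Mrpl9 (chr3:94443318-94451130, plus strand), a large subunit protein with a bacterial counterpart, stood at 36.2, 42.5 and 61.0 CPM against 21.1, 28.0 and 26.2 in non-lactating mice. It did not overlap them, its difference was 0.84 ± 0.20, adjusted p = 0.0023, and it held without control mice 2 and 3, while on the deposited scale it was at 0.47, adjusted p = 0.15.

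Whichever mouse was left out, 6 of the 15 calls of day 8, 9 of the 20 of day 14 and 3 of the 5 of day 21 were kept in NZB mice. The other 9 of day 8 (Mrpl41, Mrps2 and Mrps6 higher and Mrpl27, Mrpl3, Mrps27, Mrps30, Mrps34 and Mrps35 lower) had sizes of 0.50 to 1.03, and the count was 9 without day 8 mouse 2. The other 11 of day 14 (Mrpl12, Mrpl34, Mrpl9 and Mrps18a higher and Mrpl1, Mrpl15, Mrpl3, Mrpl33, Mrpl49, Mrps10 and Mrps27 lower) had sizes of 0.50 to 0.72, and the count was 11 without day 14 mouse 3. On day 21 the falls of Mrps26 (−0.70 ± 0.23, adjusted p = 0.025) and Mrps15 (−0.62 ± 0.23, adjusted p = 0.042) were lost without day 21 mouse 3, where the count was 3, at −0.52, adjusted p = 0.15 and −0.70, adjusted p = 0.06. A fit of the compared groups alone called 7, 7 and 1 members on days 8, 14 and 21 in NZB mice. Over the calls of all comparisons, that fit kept 45 and lost 48.

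**Figure D3:**
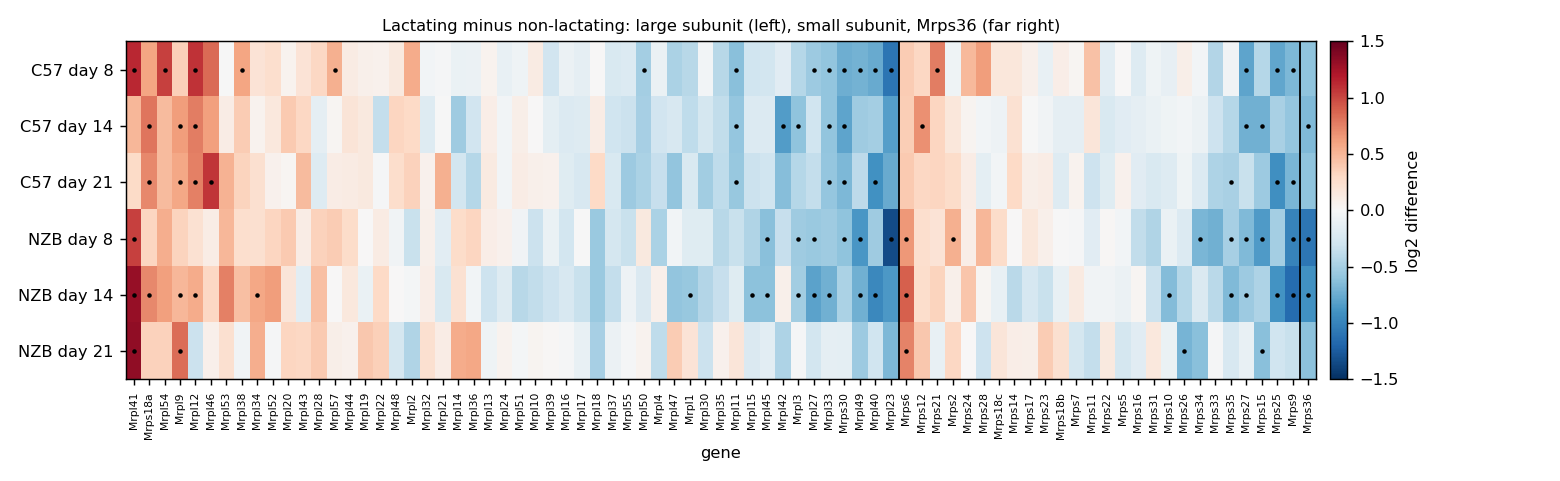
Log2 difference of each of the 77 genes (columns, large subunit left, small subunit right, Mrps36 last) between lactating and non-lactating glands on the non-milk scale for 6 genotype and day combinations (rows), with a dot where the limma test was passed. Mrpl41 and Mrpl12 are at the red end and Mrpl23, Mrps9 and Mrps36 at the blue end, and on the deposited scale 75 to 77 genes are lower in 5 of the 6 rows. Mrpl23 passed the filter without any mouse of days 8 or 14.

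The genotypes, which share no mice, can be set side by side. C57 non-lactating mouse 3, whose genotype entry says NZB, was counted as C57 by its title. On day 8 7 members passed the test in both, 41.2% of the 17 called in C57 and 46.7% of the 15 in NZB, all in the same direction. The members called in both made up 9.09% of the 77 on day 8, 9.09% on day 14 and 1.30% on day 21. Of all 16144 genes 34.7% were called in both genotypes on day 8, 30.2% on day 14 and 19.7% on day 21, and of those 99.7%, 99.8% and 91.5% had the same direction. On day 8 Mrpl41 was higher in both, and Mrpl23, Mrpl27, Mrpl49, Mrps9, Mrps27 and Mrps30 were lower. No day 8 mouse had Mrpl23 above 1 deposited CPM. It passed the filter through groups where it was higher, so its shared fall gives no support. Of the members called in both on day 8, Mrpl49 kept its call in each genotype without any single mouse. On day 14 7 members were called in both, 58.3% of 12 and 35.0% of 20, with Mrpl9, Mrpl12 and Mrps18a higher and Mrpl3, Mrpl33, Mrps27 and Mrps36 lower. On day 21 only Mrpl9 was called in both, 9.09% of 11 and 20% of 5. Across the 77 genes the differences in C57 and NZB correlated at a Pearson r of 0.74, 0.67 and 0.40 on days 8, 14 and 21, beside 0.85, 0.83 and 0.57 across all genes, where genes are not independent replicates. Mrpl12 was called on day 8 in C57 (1.09) and was at 0.23 ± 0.22, adjusted p = 0.4 in NZB, and the difference between the genotypes' changes did not pass the test (−0.86 ± 0.31, adjusted p = 0.24). No member passed that test on day 8 with limma or limma voom (4 at an unadjusted p under 0.05), beside 0.762% of all genes.

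**Figure D4:**
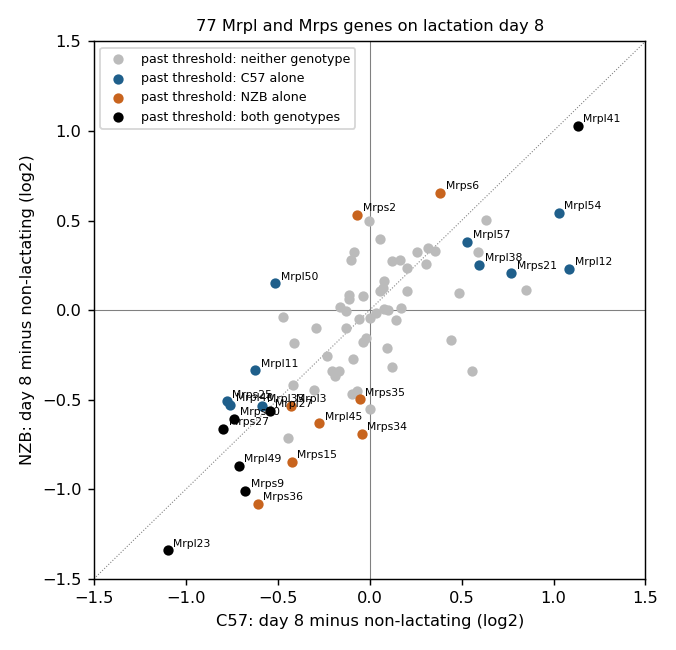
Log2 difference between day 8 and non-lactating glands for the 77 genes in C57 mice (horizontal) and NZB mice (vertical) on the non-milk scale, coloured by where the limma test was passed. Mrpl41 lies at the upper right and Mrpl23 at the lower left, and each of the 7 genes called in both genotypes lies on the same side of 0 on both axes. Mrpl23 passed the filter only through groups other than day 8, where it was higher. On the deposited scale Mrpl41 is lower in both.

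Compared directly, no member passed the test between genotypes before day 21. C57 non-lactating mouse 3, whose genotype entry says NZB, was counted as C57. Fits without 1 mouse, this mouse among them, gave 0 to 1 called members in non-lactating glands. NZB against C57 gave 0 called members in non-lactating glands (4 at an unadjusted p under 0.05, beside 5.35% of all genes called), 0 on day 8 (1 unadjusted, beside 0.0434%) and 0 on day 14 (2 unadjusted, beside 0.0372%), with limma and with limma voom. On day 21 5 were higher and 1 lower in NZB, 7.79% beside 26.2%, with a median of 0.21 for members and 0.32 for all genes. Before rescaling, on the deposited scale, 75 members were higher and 0 lower, beside 86.2% of all genes called, and the median-of-ratios scale gave 1 higher and 3 lower, beside 19.7%. Mrpl12 was lower in NZB, at 18.6, 22.3 and 34.5 CPM against 27.1, 41.1 and 51.4 (−0.65 ± 0.22, adjusted p = 0.033), and Mrpl47 higher, at 9.34, 15.4 and 16.1 against 5.81, 9.51 and 4.19 (0.99 ± 0.26, adjusted p = 0.0069). Both pairs of groups overlapped. Without C57 mouse 3 these were −0.44, adjusted p = 0.19 and 0.75, adjusted p = 0.054, and on the deposited scale Mrpl12 was higher in NZB, at 0.66. The other 4, Mrpl33, Mrpl36, Mrpl40 and Mrpl45, were higher. None of the 6 calls was kept in every such fit: the count was 3 without C57 mouse 2, 2 without C57 mouse 3, 3 without NZB mouse 2, 2 without NZB mouse 3 and 10 without C57 mouse 1. White adipocyte markers were higher in NZB by a median of 2.16 and skeletal muscle markers by 3.28, and their part in these results was not tested.

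From day 14 to day 21 in NZB mice 5 members rose and 1 fell, 7.79% beside 23.6% of all genes, with a median of 0.22 for members and 0.30 for all genes. With deposited values 74 members were higher and 0 lower, beside 86.7% of all genes called, and the median-of-ratios scale gave 1 higher and 5 lower, beside 17.3%. Mrpl12 fell from 45.9, 47.4 and 43.4 CPM to 18.6, 22.3 and 34.5, with no overlap (−0.88 ± 0.22, adjusted p = 0.0066), and turned to 0.48 on the deposited scale. Mrpl47 (chr3:32725397-32737605, minus strand), a large subunit protein near the exit tunnel, rose from 6.60, 6.29 and 5.90 to 9.34, 15.4 and 16.1 (0.97 ± 0.26, adjusted p = 0.0089). Mrpl1 (chr5:96209493-96266727, plus strand), of the lateral stalk of the large subunit, rose from 22.8, 18.5 and 16.4 to 30.4, 37.4 and 32.2 (0.77 ± 0.20, adjusted p = 0.0072). Neither overlapped, and these 3 calls held whichever mouse was left out. On the median-of-ratios scale the call of Mrpl47 was lost (0.71, adjusted p = 0.0504) and the rise of Mrpl1 was smaller (0.50, adjusted p = 0.031). The other 3, Mrpl36, Mrpl45 and Mrps9 (sizes 0.46 to 0.82), were each lost without day 21 mouse 2 or mouse 3, and the count was then 3 and 3. Skeletal muscle markers had a median difference of 3.08 and white adipocyte markers of 1.69 in the same comparison. Muscle markers summed to 262, 882 and 6.86 CPM in NZB day 21 mice 1, 2 and 3, against 4.70 to 11.9 on day 14. White adipocyte markers summed to 2165, 752 and 832 CPM in the same mice, against 260.5 to 453. The part of both in these results was not tested.

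The change from day 14 to day 21 differed between genotypes for 1 member, Mrpl47, 1.30% beside 6.8% of all genes. C57 mice stood at 8.68, 8.14 and 7.88 CPM on day 14 and 5.81, 9.51 and 4.19 on day 21, and the change of NZB less that of C57 was 1.33 ± 0.36, adjusted p = 0.029. With deposited values 67 members were higher and 0 lower, beside 75.0% of all genes called, and the median-of-ratios scale gave 0 higher and 0 lower, beside 4.97%. With limma voom no member passed. The call was lost in 6 of the fits that left out 1 mouse (for C57 day 21 mouse 3 at 1.10, adjusted p = 0.091). Mrpl47 shares 1068 exon bases with Actl6a and Ndufb5 on the opposite strand, whose differences in the same test were 0.25 ± 0.32, adjusted p = 0.68 and −0.86 ± 0.26, adjusted p = 0.048. For Mrpl12 the change of NZB less that of C57 was −0.87 ± 0.31, adjusted p = 0.09.

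Taken over the 6 comparisons with non-lactating glands on the non-milk scale, both subunits held rising and falling members, though not in every comparison. Of all genes 45.3%, 39.6% and 40.4% were called on days 8, 14 and 21 in C57 mice. In NZB mice these shares were 48.2%, 47.4% and 33.0%. Higher and lower calls in the large against the small subunit were 5 and 8 of 50 against 1 and 3 of 26 on day 8, 3 and 5 of 50 against 1 and 2 of 26 on day 14 and 4 and 4 of 50 against 0 and 3 of 26 on day 21 in C57 mice, and 1 and 6 of 50 against 2 and 5 of 26, 5 and 8 of 50 against 1 and 5 of 26 and 2 and 0 of 50 against 1 and 2 of 26 on the same days in NZB mice. The median difference lay between −0.17 and 0.03 for the large and between −0.16 and −0.02 for the small subunit in these 6 comparisons. On the median-of-ratios scale day 8 in C57 gave 10 higher and 1 lower for the large and 5 higher and 0 lower for the small subunit. That scale called 43.8% of all genes. Split by the numbering of the symbols, 43 members were counted as having a bacterial counterpart and 33 as particular to mitochondria. The split is rough, since some of the latter have bacterial relatives too, Mrpl47, Mrps24 and Mrps28 among them. It also places Mrps18c among the former and Mrps18a and Mrps18b among the latter. On day 8 in C57 2 of the former were higher and 5 lower, and 4 of the latter were higher and 6 lower. Mrps12 of the decoding site differed by 0.31 ± 0.27, adjusted p = 0.38 on that day, Mrpl3 by −0.43 ± 0.20, adjusted p = 0.085, and Mrps22 by −0.16 ± 0.27, adjusted p = 0.65.

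On the non-milk scale called genes among those that build and serve the mitochondrial ribosome went in both directions as well. Differences of single genes on these lists, here and below, are given on that scale alone. The median of all genes on day 8 was −1.81 in C57 and −1.80 in NZB on the deposited scale. On the median-of-ratios scale it was −0.06 in both, so the direction of a change can depend on the scale. On day 8 45.3% of all genes were called in C57 and 48.2% in NZB. Of 26 measured assembly and rRNA maturation genes, day 8 gave 2 higher and 4 lower in C57 (median −0.20) and 3 higher and 7 lower in NZB (median −0.28), beside median genes at −0.33 and −0.33. Rpusd3, a pseudouridine synthase family member, fell in both (−1.54 ± 0.33, adjusted p = 0.00051 and −1.68 ± 0.33, adjusted p = 0.00022), and Mpv17l2, an assembly factor of the inner membrane, rose in both (1.17 ± 0.17, adjusted p = 7.9e-06 and 1.06 ± 0.17, adjusted p = 2.7e-05). From day 14 to 21 in NZB mice these reversed, Rpusd3 at 1.20 ± 0.33, adjusted p = 0.011 and Mpv17l2 at −0.87 ± 0.17, adjusted p = 0.0012. Of 6 measured mitoribosome proteins under other names none was called on day 8 in C57 with limma (0 at an unadjusted p under 0.05), and Dap3, a small subunit protein, fell in NZB (−0.64 ± 0.20, adjusted p = 0.011).

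Of 13 measured translation factors, 1 higher and 0 lower in C57 and 1 higher and 3 lower in NZB were called on day 8 (medians −0.26 and −0.46). The shares of all genes called on that day were 45.3% in C57 and 48.2% in NZB. Oxa1l, which inserts newly made proteins into the inner membrane, rose in both (1.20 ± 0.17, adjusted p = 6.5e-06 and 0.73 ± 0.17, adjusted p = 0.0015), and the elongation factor Tufm fell in NZB (−0.52 ± 0.18, adjusted p = 0.022). Of 20 tRNA synthetase genes, 3 higher and 3 lower in C57 and 3 higher and 4 lower in NZB were called (medians −0.05 and −0.22). Mars2 rose in both (1.45 ± 0.33, adjusted p = 0.0011 and 1.40 ± 0.33, adjusted p = 0.0015) and Iars2 fell in both (−0.72 ± 0.13, adjusted p = 0.00014 and −0.43 ± 0.13, adjusted p = 0.011). Lars2 rose in C57 (3.05 ± 0.45, adjusted p = 8.2e-06), and its change in NZB less that in C57 was −2.81 ± 0.64, adjusted p = 0.037. Of 15 transcription and RNA processing genes 0 higher and 1 lower in C57 and 0 higher and 0 lower in NZB were called (4 and 1 at an unadjusted p under 0.05).

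Mitochondrially encoded mRNAs, the templates of this ribosome, and regulators of mitochondrial genes were measured as well. Of all genes 45.3% were called on day 8 in C57, 48.2% on day 8 in NZB and 26.2% between genotypes on day 21. The 13 mitochondrially encoded mRNAs had 0 higher and 2 lower calls on day 8 in C57 (median −0.17) and 0 higher and 0 lower in NZB (median 0.37, 2 at an unadjusted p under 0.05 with limma), and on day 21 3 were lower in NZB than in C57 (mt-Nd3 −1.63 ± 0.36, adjusted p = 0.0021, mt-Co2 −1.24 ± 0.26, adjusted p = 0.0015, mt-Nd1 −0.80 ± 0.29, adjusted p = 0.044). The difference was not limited to day 21. As group means, the 13 summed to 87424 CPM in NZB and 126073 in C57 non-lactating glands. These means were 107549 and 104997 on day 8, 75476 and 107656 on day 14, and 71324 and 109269 on day 21. At an unadjusted p under 0.05 with limma, 4, 2, 2 and 5 of the 13 differed between genotypes at these stages. Among 9 regulators Ppargc1a, a coactivator of mitochondrial biogenesis, fell on day 8 in both genotypes (−1.74 ± 0.39, adjusted p = 0.00094 and −2.29 ± 0.39, adjusted p = 5.3e-05). Pprc1, a related coactivator, rose in both (1.14 ± 0.26, adjusted p = 0.0011 and 0.72 ± 0.26, adjusted p = 0.027). Of the 79 cytosolic ribosome protein genes 18 were higher and 0 lower on day 8 in C57 (median 0.33) and 25 higher and 0 lower in NZB (median 0.45), beside medians of −0.04 and −0.04 for the mitochondrial ones. On the deposited scale the cytosolic medians were −1.55 and −1.41, with 0 higher and 78 lower in C57 and 0 higher and 78 lower in NZB.

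**Figure D5:**
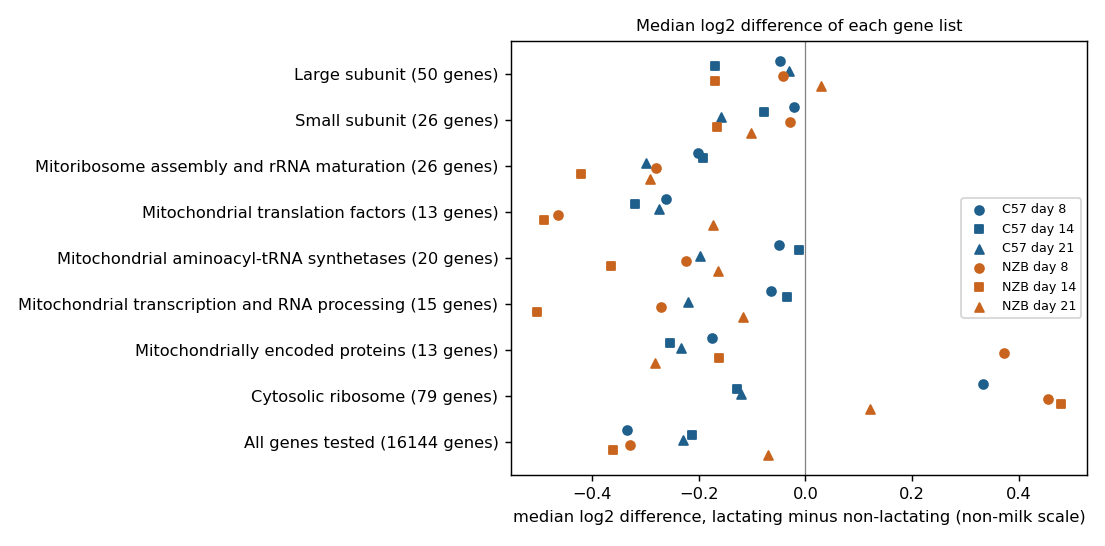
Median log2 difference between lactating and non-lactating glands on the non-milk scale (horizontal axis) for 8 gene lists and for all genes tested (rows), with colour for genotype and shape for day. The medians of both mitochondrial ribosome subunits lie between −0.17 and 0.03, and those of the cytosolic ribosome reach 0.48 on day 14 in NZB, while on the deposited scale these medians are lower for every list.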

How the data were processed

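The deposited table held log10 values of CPM plus 1 for 32544 genes in 48 columns, 2 columns per mouse; that scale was recognised because the values turned back into whole reads, and what the authors did before is in the labels only as the builds GRCm38 and mm10, per the submitters' processing notes. The aligner and counter: not given in the sources used here. The tests had been planned for CPM, and the log10 values were turned back into CPM first. Within a tolerance of 0.05, 100.0% of values came out as whole reads, on which limma voom called 6837 genes on day 8 in C57, against 7313 in the main test. Both columns of a mouse were averaged, genes above 1 deposited CPM in at least 3 mice were kept (16144 without 19 genes of milk proteins), and the rest was rescaled. Limma 3.58.1 in R 4.3.3 (limma-trend) fitted log2 of CPM plus 1 over 24 mice and 8 groups (16 residual degrees of freedom), with Benjamini-Hochberg adjustment over all genes, for 14 comparisons; the steps were tested on simulated data. Alternatives were the deposited and median-of-ratios scales, a pseudocount of 0.25, no filter, a minimum of 5 CPM, the compared groups alone, limma voom on whole reads, a replicate block, the second column alone, and leaving out mice. Positions and overlaps are from GENCODE M21 on GRCm38. The rule lets all members be named, with up to 6 called members of the largest rise and fall per comparison first; those described in full are mainly the ones that kept their call without any 1 mouse, chosen after their values were seen. The members and lists were chosen with earlier results of these data known.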

Additional observations from a re-analysis of the deposited data

Results flagged for a closer look

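Mrpl47 changed differently from day 14 to day 21 in the genotypes by a test of the difference itself. The change of NZB less that of C57 was 1.33 ± 0.36, adjusted p = 0.029 (limma), with NZB at 0.97 and C57 at −0.36. Among the alternatives that ended the call, the median-of-ratios scale gave 1.06, adjusted p = 0.082, the compared groups alone 1.33, adjusted p = 0.07 and limma voom 1.48, adjusted p = 0.050.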

How the results depend on the processing

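Called members on the deposited scale numbered 75, 76 and 76 on days 8, 14 and 21 in C57 and 77, 75 and 21 in NZB, 74 from day 14 to 21 in NZB, 75 for NZB against C57 on day 21 and 67 for the difference in change. That scale holds the milk protein transcripts in its total, and 24 calls reversed on it. For C57 day 8 these were Mrpl12 at −0.77, Mrpl38 at −1.24, Mrpl41 at −0.73, Mrpl54 at −0.59, Mrpl57 at −1.17, Mrps21 at −1.05. For C57 day 14 these were Mrpl12 at −0.91, Mrpl9 at −1.03, Mrps12 at −0.65, Mrps18a at −0.86. For C57 day 21 these were Mrpl12 at −0.93, Mrpl9 at −1.08, Mrps18a at −0.95. For NZB day 8 these were Mrpl41 at −0.79, Mrps2 at −1.27, Mrps6 at −1.01. For NZB day 14 these were Mrpl12 at −1.17, Mrpl34 at −1.07, Mrpl41 at −0.41, Mrpl9 at −1.20, Mrps18a at −0.99, Mrps6 at −0.72. For NZB day 21 against day 14 these were Mrpl12 at 0.48. For NZB against C57 on day 21 these were Mrpl12 at 0.66. The median-of-ratios scale gave 5 on day 14 in C57 and 0 for the difference in change, and no filter on low values gave 7 on day 21 in C57. With the compared groups alone the counts were 5 on day 21 in C57, 7, 7 and 1 on days 8, 14 and 21 in NZB, 0 for NZB against C57 on day 21 and 0 for the difference in change. Limma voom on whole reads gave 10 on day 21 in NZB and 0 for the difference in change. Without NZB non-lactating mice 2 and 3 the NZB counts were 3, 2 and 3. Leaving out 1 mouse at a time gave 7 to 16, 5 to 10 and 6 to 11 on days 8, 14 and 21 in C57, 9 to 14, 11 to 21 and 3 to 6 in NZB, 3 to 8 from day 14 to 21 in NZB, 0 to 1 and 2 to 10 for NZB against C57 in non-lactating and day 21 glands, and 0 to 4 for the difference in change. Where no construction is named, the cause was not tested.

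Mice of different groups share the numbers F1 to F3 in their titles, which do not say whether the numbers pair them. Of 84 same-numbered pairs 9 correlated above 0.1 in their deviations from the group means. Without pairs of different numbers beside it, this count cannot settle whether any mice are paired. The highest, 0.48 and 0.41, were mice 1 and mice 2 of C57 days 14 and 21, and mice 3 of these days were at 0.05; with the block 0 genes were called between these days with limma (155 at an unadjusted p under 0.05). With the replicate number as a block, higher and lower members numbered 6 and 10, 3 and 8 and 4 and 5 on days 8, 14 and 21 in C57, 3 and 12, 4 and 14 and 4 and 1 in NZB, 5 and 1 from day 14 to 21 in NZB, 6 and 1 for NZB against C57 on day 21 and 1 and 0 for the difference in change. With 3 mice a group, a change that missed the threshold is not shown to be absent.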
